A study of Saccharomyces cerevisiae with 12 samples.

Results

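Budding yeast cells without TAF14 were compared with wild type cells by total RNA sequencing, in 6 of the 12 libraries of the series. The 3 deletion libraries came from BY4741 carrying a taf14 deletion and the plasmid pRS313-HA3-SSN6, which the labels call the empty vector. The 3 wild type libraries came from BY4741 with that plasmid, so both groups share the plasmid, its HIS3 marker and the HA3-SSN6 element. BY4741 is a haploid laboratory strain of mating type a that lacks HIS3, LEU2, URA3 and MET17. The other libraries, 3 of each, came from the deletion strain with TAF14 (the TAF14 strain) or its W81A form (the W81A strain) on the same plasmid, and are used here only where they touch a result. The labels do not give the growth medium, or say whether replicates were separate cultures or separate clones, and p-values cover no more than the scatter among the libraries, which may be technical.

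Taf14 is a small nuclear protein with a YEATS domain, a fold that binds acylated lysines on the tail of histone H3. It is a subunit of several machines that act on RNA polymerase II genes, among them the general factors TFIID and TFIIF, the chromatin remodellers INO80, SWI/SNF and RSC, and the NuA3 histone acetyltransferase. The comparison asks how RNA levels across the genome differ when the whole protein is missing.

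The deleted gene checked the labels. TAF14 (YPL129W, chromosome XVI 305298-306137, plus strand, build sacCer3/R64) had 4, 2 and 5 counts in the deletion libraries, against 1397, 1253 and 1467 in wild type. LEU2, URA3 and MET17 had 0 counts in each of the 6 libraries, where a count of 0 allows up to 3 counts, or at most 0.327 counts per 1000000 counts of the library (CPM). HIS3, on the plasmid, was present in both groups and higher in the deletion strain (534, 716 and 641 CPM) than in wild type (312, 311 and 267 CPM). Total counts were 9606617, 10747955 and 10766996 in deletion libraries and 10089378, 9258691 and 9007715 in wild type. One feature set the deletion libraries apart before any gene was considered. Genes of chromosome XII read high as a set in each of them, with medians of 0.432, 0.437 and 0.494 on the log2 scale against the wild type mean. Wild type medians were 0.009, -0.004 and -0.008. Replicate 2 of the TAF14 strain, which enters the shared fit, had the same feature, at 0.532. Genes of chromosome XII, those whose identifiers start with YLL or YLR, are therefore reported separately throughout.

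Loss of TAF14 was accompanied by differences at many genes, most of them small. Of 5418 genes tested off chromosome XII, 1105 were higher (20.4%) and 1454 lower (26.8%) in the deletion strain than in wild type. A gene was called higher or lower where the quasi-likelihood F-test of edgeR gave an adjusted p below 0.05, with Benjamini-Hochberg adjustment over all 5918 tested genes. The median called rise was 0.46 and the median called fall -0.40 on the log2 scale, and 616 of the rises and 949 of the falls were smaller than 0.5. At least 2-fold differences were found for 140 genes higher (2.58%) and 164 lower (3.03%). Over all genes off chromosome XII the median was -0.049, and since levels are relative to each library, a change in total RNA per cell would not be seen. Without replicate 2 of the TAF14 strain 1206 genes were higher and 1607 lower.

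**Figure D1:**
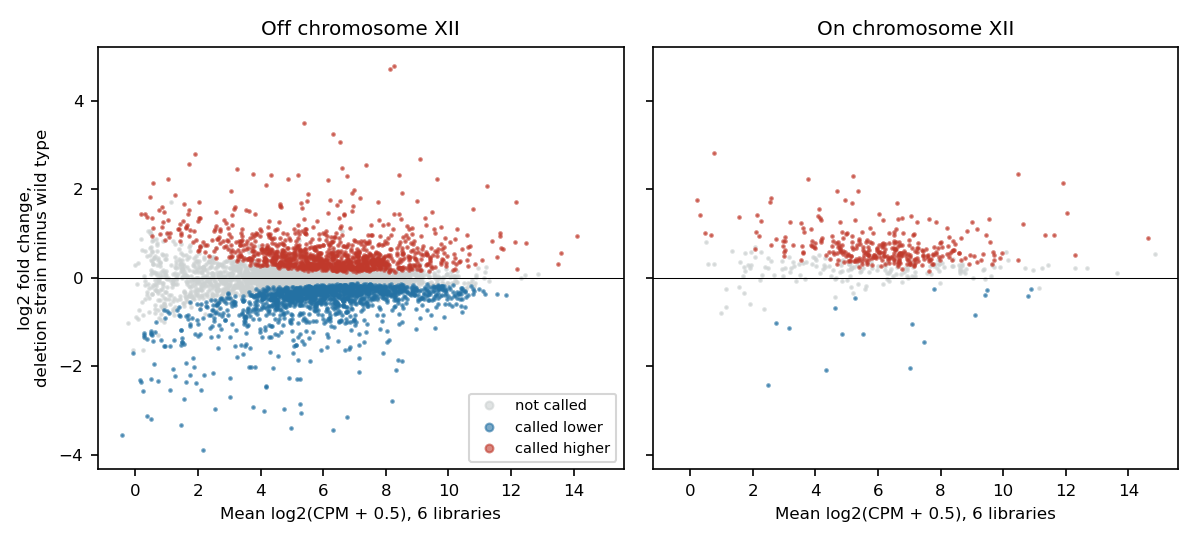
Log2 fold change of each tested gene, deletion strain minus wild type, against its mean log2(CPM + 0.5) over the 6 libraries, for genes off chromosome XII (left) and on it (right), with called genes in colour and TAF14 itself, at -8.47, left out. Off chromosome XII 1105 genes were called higher and 1454 lower, while on chromosome XII 315 were called higher and 17 lower.

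Among called genes with a mean log2 CPM of at least 3, groups that do not overlap and a standard name, the largest rise off chromosome XII was that of NCE103 (YNL036W, chromosome XIV 559814-560479, plus strand), which encodes carbonic anhydrase, the enzyme that interconverts carbon dioxide and bicarbonate. It had 1617, 1535 and 1689 CPM in deletion libraries, against 61.3, 50.3 and 64.7 CPM in wild type, a log2 fold change of 4.78 ± 0.13 (adjusted p = 8.35e-11). All 3 deletion libraries lay far above all 3 wild type libraries. HSP12 (YFL014W, chromosome VI 107256-107585, plus strand), a small stress protein that associates with membranes, came next, with 1378, 1487 and 1562 CPM in deletion libraries, against 79.2, 45.4 and 43.6 CPM in wild type (4.72 ± 0.88, adjusted p = 0.000777). Its standard error was wide in a fit shared by 12 libraries, since the TAF14 strain held 6.18, 165 and 6.18 CPM. Without replicate 2 of that strain the change was 4.71 (adjusted p = 3.67e-11).

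Of the other large rises by this rule, the hexokinase gene HXK1 had 242, 239 and 249 CPM in deletion libraries, against 25.7, 28.1 and 22.7 CPM in wild type (3.25 ± 0.19). PYC1, for the pyruvate carboxylase that fixes bicarbonate onto pyruvate, had 1329.9, 1384 and 1444 CPM in deletion libraries, against 248, 208 and 195 CPM in wild type (2.68 ± 0.13, adjusted p = 7.53e-09). FIT2 and FIT3 encode cell wall mannoproteins that retain iron bound to siderophores, and rose by 3.5 ± 0.24 and 2.32 ± 0.23. FIT2 was uniform in both groups, at 126, 133 and 152 CPM in deletion libraries, against 12.1, 12.2 and 11.9 CPM in wild type. MCR1, a mitochondrial NADH-cytochrome b5 reductase, rose by 2.55 ± 0.10, the ornithine carbamoyltransferase gene ARG3 by 2.30 ± 0.10 and the small heat shock protein gene HSP26 by 2.34 ± 0.26. MSC1 rose by 3.06 ± 0.14 and ECM13 by 2.32 ± 0.23. Reads could not be assigned with certainty for 3 of the 14 largest rises by this rule. The hexose transporter gene HXT7 (2.46 ± 0.17) has a near copy, the glucokinase gene GLK1 (2.49 ± 0.19) overlaps another open reading frame, and the phosphoglycerate dehydrogenase gene SER3 (2.32 ± 0.23) overlaps a noncoding RNA gene.

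The largest of the 14 falls named by the same rule, after TAF14 itself, was that of PHO84 (chromosome XIII 24037-25800, minus strand), the high-affinity phosphate transporter. It had 23.4, 23.6 and 25.1 CPM in deletion libraries, against 342, 234 and 202 CPM in wild type (-3.43 ± 0.16, adjusted p = 7.4e-09), although it overlaps another annotated gene. MFA1, which encodes the precursor of the mating pheromone a-factor, had 8.4, 10.2 and 9.59 CPM in deletion libraries, against 98.9, 86.1 and 112 CPM in wild type (-3.39 ± 0.19). ZRT1, the high-affinity zinc transporter, had 12.3, 14.7 and 15.3 CPM in deletion libraries, against 100.1, 127 and 82.1 CPM in wild type (-2.86 ± 0.41, adjusted p = 0.000105). In all of them the groups did not overlap, because the naming rule required it. HSP30, a stress protein of the plasma membrane, fell by 2.97 on the log2 scale and the cyclin-dependent kinase inhibitor gene CIP1 by 2.46. IMD2, for the inosine monophosphate dehydrogenase of guanine nucleotide synthesis, fell by 2.45, and the biotin synthase gene BIO2 by 2.28. RDS1 had 3.27, 3.48 and 3.39 CPM in deletion libraries, against 17.1, 16.6 and 15 CPM in wild type.

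**Figure D2:**
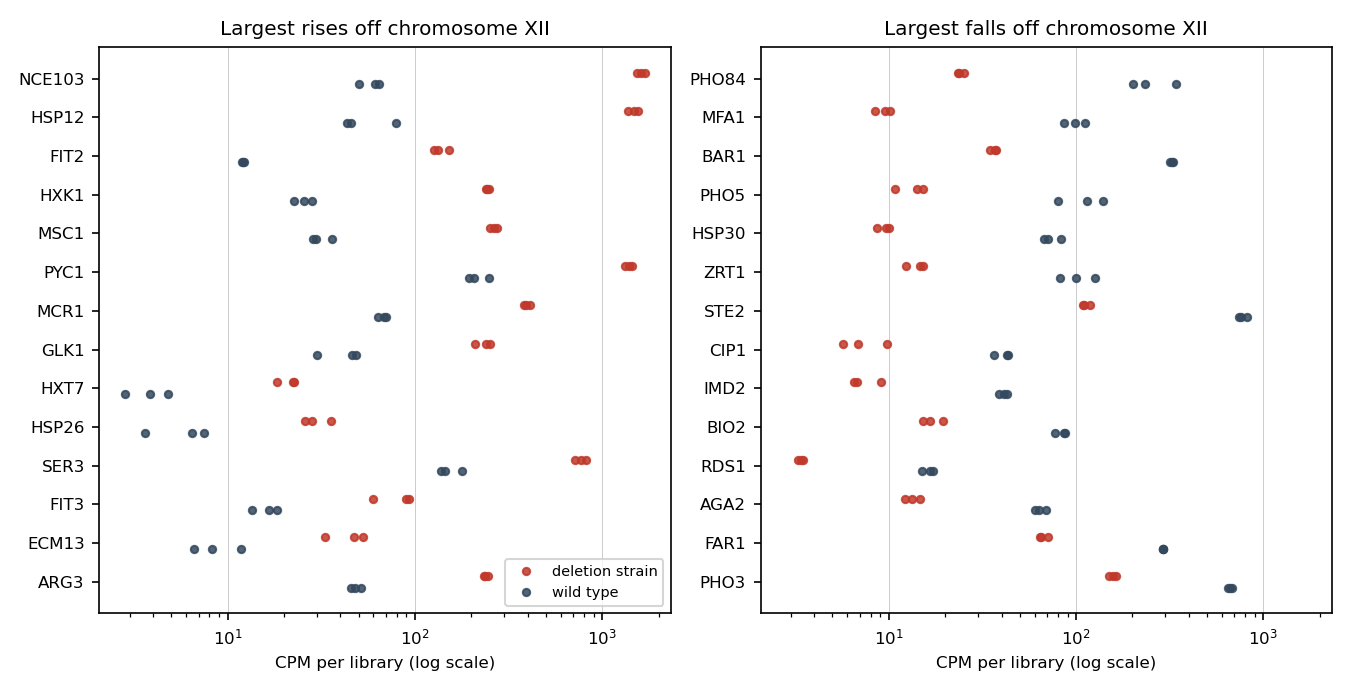
Levels in each library (CPM, log axis) of the 14 largest rises and 14 largest falls off chromosome XII, ordered by log2 fold change, with the 3 deletion libraries (red) above the 3 wild type libraries (dark) for each gene. The groups do not overlap for any gene because the naming rule required it, and the replicates of a group usually lie much closer together than the groups.

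Genes that define the a mating type were all low in cells without TAF14. Haploid a cells make a-factor and the receptor for alpha-factor, and binding of alpha-factor starts a G protein and kinase cascade that ends at the transcription factor Ste12. All 7 a-specific genes fell, with a median of -2.26, where 26.8% of all genes off chromosome XII were lower. STE2, the alpha-factor receptor, had 119, 110.5 and 109 CPM in deletion libraries, against 758, 744 and 819 CPM in wild type (-2.78 ± 0.09, adjusted p = 2.24e-10). BAR1, the secreted protease that degrades alpha-factor, had 34.5, 37 and 37.3 CPM in deletion libraries, against 327, 323 and 317 CPM in wild type (-3.15 ± 0.19, adjusted p = 4.54e-08). For both genes the libraries of a group lay close together and the groups were far apart. In bulk RNA, fewer cells that express a gene and less RNA per cell cannot be told apart. The smallest falls were those of the second a-factor gene, MFA2 (-1.28 ± 0.09), and STE6, which exports a-factor (-1.16 ± 0.08). AGA2, the adhesive subunit of a-agglutinin, fell by 2.26 on the log2 scale, and ASG7, which inhibits signalling after mating, by 2.16.

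Genes that mark alpha cells stayed at low levels in both groups. SAG1, alpha-agglutinin, had 27.6, 25.3 and 27.4 CPM in deletion libraries, against 30.03, 25.9 and 26.3 CPM in wild type, and MF(ALPHA)2 had 3.49, 3.98 and 3.1 CPM in deletion libraries, against 2.94, 2.77 and 2.63 CPM in wild type. Neither was called. STE3, the a-factor receptor of alpha cells, was called lower at 0.546, 0.597 and 1.36 CPM in deletion libraries, against 3.22, 3.9 and 3.64 CPM in wild type. MF(ALPHA)1 was also called lower, but its deletion libraries, at 0.218, 0.199 and 0.291 CPM, held no more than 3 counts each, against 1.04, 1.85 and 1.52 CPM in wild type. No alpha marker was called higher in the deletion strain, and the a-specific markers were present in wild type and reduced, not absent, in the deletion strain.

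Down the signalling pathway the falls continued, though not at every step. Off chromosome XII 9 of 14 tested signalling genes were lower and 0 higher (median -0.70), where 26.8% and 20.4% of all genes there were. FAR1, which halts division once pheromone is sensed, had 71.2, 64.5 and 65 CPM in deletion libraries, against 291, 291 and 289 CPM in wild type (-2.12 ± 0.10). The mitogen-activated kinase gene FUS3 fell by 1.21 and STE4, for the G protein beta subunit, by 0.77. On chromosome XII, against the upward shift of its neighbours, SST2, which turns off the G protein, had 67.3, 57.2 and 68.1 CPM in deletion libraries, against 259, 248 and 279.7 CPM in wild type (-2.03 ± 0.11, adjusted p = 2.04e-08). The other signalling gene tested on chromosome XII, the kinase gene STE11, named after its value was seen, was higher (0.75 ± 0.13), also relative to the chromosome (0.27 ± 0.07). Genes for cell and nuclear fusion were less uniform, with 7 of 18 lower, 2 higher and 9 not called (median -0.31, from -3.55 to 0.80). They were called about as often as all genes off chromosome XII, of which 47.2% were called in either direction. KAR5, needed for nuclear fusion, fell by 0.83 and PRM4 by 1.23, whereas PRM5 had 99.8, 105 and 95.2 CPM in deletion libraries, against 59.8, 54.1 and 58.6 CPM in wild type (0.80 ± 0.09).

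The promoter window of BAR1, among the largest of these falls, holds a sequence that recurs in mating genes. The pheromone response element TGAAACA, the letters bound by Ste12, was searched on both strands from 250 bases before to 50 bases after each annotated gene start in the R64 genome. It was found in 413 of 5648 tested genes (7.31%), in 5 of 7 a-specific genes and in 19 of 41 genes over the 3 lists of a-specific, signalling and fusion genes. Among called genes off chromosome XII it was in 8.38% of those lower and 5.38% of those higher, and these sets include members of the 3 lists. The BAR1 window, chrIX:322092-322391 on the plus strand, is printed 5′ to 3′ with the element in capitals, 184 bases before the gene start.
BAR1: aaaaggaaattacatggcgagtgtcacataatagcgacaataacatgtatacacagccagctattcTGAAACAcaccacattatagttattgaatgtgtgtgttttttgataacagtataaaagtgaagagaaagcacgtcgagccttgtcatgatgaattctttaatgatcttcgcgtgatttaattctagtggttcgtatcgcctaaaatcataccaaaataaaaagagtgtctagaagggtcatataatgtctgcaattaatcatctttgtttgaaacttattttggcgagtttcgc

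A different set of genes, those of protein folding and degradation, was higher. Heat shock factor Hsf1 drives most cytosolic chaperone genes, and the transcription factor Rpn4 drives the proteasome, which degrades ubiquitin-tagged proteins. Of 24 tested chaperone genes off chromosome XII 19 were higher, 1 lower and 4 not called (median 0.61), where 20.4% of all genes off chromosome XII were higher. All 4 chaperone genes of chromosome XII were higher also relative to their chromosome. SSA4, the stress-inducible Hsp70, had 149.97, 158 and 146 CPM in deletion libraries, against 33.2, 37.1 and 27.6 CPM in wild type (2.21 ± 0.14, adjusted p = 9.15e-08). AHA1, the activator of the Hsp90 ATPase, had 353, 346 and 331 CPM in deletion libraries, against 143, 132 and 142 CPM in wild type (1.30 ± 0.06, adjusted p = 1.06e-08). On chromosome XII the Hsp90 cochaperone gene CPR6 rose by 1.27 ± 0.07, and SSA2, an abundant Hsp70 with a near copy elsewhere, read 0.97 ± 0.07. Relative to the chromosome CPR6 rose by 0.79 ± 0.08, and SSA2 read 0.49 ± 0.12.

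Proteasome genes moved together and by little. Every one of the 14 core particle genes was higher (median 0.38, from 0.16 to 0.76), and so was every one of the 18 regulatory particle genes off chromosome XII (median 0.36) and the 1 on it. PRE7, a beta subunit of the core, had 189.7, 202 and 189 CPM in deletion libraries, against 116, 116 and 109.7 CPM in wild type (0.76 ± 0.05, adjusted p = 2.32e-07). RPT4, an ATPase of the regulatory base, had 276, 289.9 and 290.4 CPM in deletion libraries, against 175, 167 and 159 CPM in wild type (0.77 ± 0.06, adjusted p = 3.49e-07). In both genes the lowest deletion library lay above the highest wild type library. The base subunit RPN2 rose by 0.51 ± 0.06 and the deubiquitinating lid subunit RPN11 by 0.60 ± 0.07. Of 12 further genes of ubiquitin and proteasome assembly off chromosome XII 6 were higher and 1 lower, where 20.4% and 26.8% of all genes there were. UBA1, the ubiquitin-activating enzyme, rose by 0.57 ± 0.06, and CDC48, the unfoldase that extracts ubiquitinated proteins, by 0.38 ± 0.07. UBI4, the polyubiquitin gene on chromosome XII, had 82.5, 79.6 and 75.9 CPM in deletion libraries, against 20.8, 22.5 and 17.7 CPM in wild type, and rose by 1.48 ± 0.10 relative to its chromosome.

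The element bound by Rpn4, GGTGGCAAA, was in 12 of 14 core and 15 of 19 regulatory particle promoter windows, and in 70 of 5648 windows overall (1.24%). It was in 4.25% of windows of genes called higher off chromosome XII and 0.14% of those called lower. Genes called higher include the proteasome genes themselves, so these shares are not separate from the counts of the lists. The heat shock element, searched as GAANNTTC where N is any base, was in 11 of 28 chaperone windows and in 12% of all windows. Its share was 11.8% among genes called higher and 12.4% among genes called lower off chromosome XII, close to the share of all windows. The windows of RPT4 (chrXV:813659-813958, minus strand) and AHA1 (chrIV:892625-892924, plus strand) are shown. Each was chosen from its lists as the largest change among called genes off chromosome XII whose window holds the element. Genes with a near copy or with overlapping groups were left out. The presence of the element in these windows was therefore fixed by the choice. Capitals mark the Rpn4 element, which reads as its reverse complement in RPT4, 112 bases before the gene start, and the heat shock element 105 bases before the start of AHA1.
RPT4: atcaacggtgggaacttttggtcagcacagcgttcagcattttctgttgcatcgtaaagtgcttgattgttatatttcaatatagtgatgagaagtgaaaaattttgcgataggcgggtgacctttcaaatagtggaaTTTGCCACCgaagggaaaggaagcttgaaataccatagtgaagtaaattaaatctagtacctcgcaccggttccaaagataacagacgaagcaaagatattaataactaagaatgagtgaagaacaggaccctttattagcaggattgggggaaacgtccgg
AHA1: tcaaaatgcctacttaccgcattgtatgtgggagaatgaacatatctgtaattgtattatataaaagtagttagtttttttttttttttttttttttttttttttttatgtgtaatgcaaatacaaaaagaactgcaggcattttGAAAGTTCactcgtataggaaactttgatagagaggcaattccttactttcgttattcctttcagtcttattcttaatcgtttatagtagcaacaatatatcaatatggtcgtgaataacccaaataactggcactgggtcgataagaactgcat

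General stress genes were more often higher than lower. Msn2 and Msn4 switch these genes on through the stress response element AGGGG when nutrients run low or cells are damaged. Off chromosome XII 14 of 25 were higher, 2 lower and 9 not called (median 0.57), where 20.4% of all genes off chromosome XII were higher. CTT1, the cytosolic catalase, had 64, 61.2 and 63.4 CPM in deletion libraries, against 14.9, 13.4 and 11.8 CPM in wild type (2.23 ± 0.13, adjusted p = 4.81e-08). OM45, a protein of the mitochondrial outer membrane, rose by 1.58 ± 0.10, and the reticulon gene RTN2 by 1.6 ± 0.11. For the reserve carbohydrates trehalose and glycogen 11 of 19 genes were higher and 4 lower (median 0.50). TSL1, a regulatory subunit of trehalose synthase, had 280.4, 231 and 242 CPM in deletion libraries, against 59.1, 74.3 and 57.7 CPM in wild type (1.98 ± 0.16). Genes for making and for breaking down trehalose both rose, the synthase TPS1 by 0.79 ± 0.08 and the trehalase NTH1 by 1.19 ± 0.06. PGM2, phosphoglucomutase, rose by 1.68 ± 0.08.

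The AGGGG element was in 25 of 48 promoter windows of the stress and carbohydrate lists and in 21.8% of all windows. It was in 30.3% of windows of genes called higher off chromosome XII, against 17.6% of those called lower, and these sets include members of the lists. HSP12, the largest rise of these lists, has it at 2 positions, 232 and 190 bases before the gene start, both on the reverse strand, where it reads CCCCT (capitals; chrVI:107006-107305, plus strand).
HSP12: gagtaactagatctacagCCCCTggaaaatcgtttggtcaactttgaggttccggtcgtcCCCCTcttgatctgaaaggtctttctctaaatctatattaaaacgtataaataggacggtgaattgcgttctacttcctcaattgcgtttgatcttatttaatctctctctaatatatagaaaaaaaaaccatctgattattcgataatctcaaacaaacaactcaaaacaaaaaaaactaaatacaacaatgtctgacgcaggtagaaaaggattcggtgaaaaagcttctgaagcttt

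Genes of defence against oxidants were more often higher than lower. Off chromosome XII 11 of 21 genes were higher and 4 lower (median 0.34), where 20.4% and 26.8% of all genes there were. Glutathione reductase, GLR1, rose by 0.51 ± 0.06, and the glutaredoxin gene GRX1 by 0.61 ± 0.07. OYE2, an NADPH oxidoreductase, had 214, 258 and 252 CPM in deletion libraries, against 492, 539 and 456 CPM in wild type, and fell by 1.04 on the log2 scale.

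**Figure D3:**
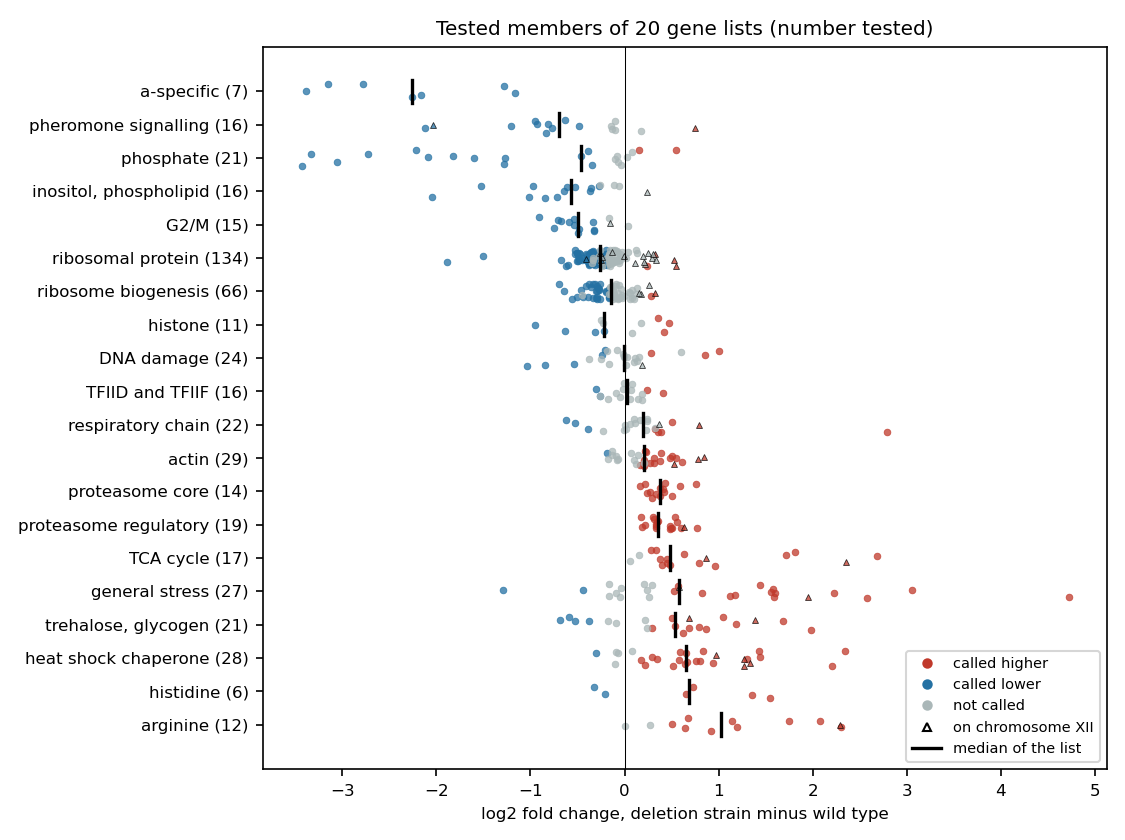
Log2 fold change (deletion strain minus wild type) of every tested member of 20 gene lists, each point a gene, with called genes in colour, genes of chromosome XII as triangles and the list median as a bar; the number tested is in brackets. Every a-specific gene lies below 0 and every proteasome gene above it, while histone, DNA damage and TFIID and TFIIF genes lie on both sides.

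Many genes of amino acid synthesis were higher, those of arginine among them. The transcription factor Gcn4 drives these pathways when amino acids are scarce. Off chromosome XII 9 of 11 arginine genes were higher, 0 lower and 2 not called (median 0.92), where 20.4% of all genes off chromosome XII were higher. ARG3, the ornithine carbamoyltransferase, had 245, 237 and 234 CPM in deletion libraries, against 47.7, 45.8 and 51.4 CPM in wild type. Enzymes that break arginine down rose as well, with arginase, CAR1, at 111, 154 and 146 CPM in deletion libraries, against 43.5, 43.5 and 34.9 CPM in wild type (1.75 ± 0.14), and the ornithine transaminase CAR2, on chromosome XII, at 2.29 ± 0.22. The arginine genes that were not called were ARG2, the first enzyme, at 47.4, 48.3 and 48.3 CPM in deletion libraries, against 47.5, 47.1 and 48.2 CPM in wild type, and the ornithine carrier ORT1 (0.27 ± 0.13).

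In the histidine pathway 4 of 6 genes were higher and 2 lower, where 20.4% and 26.8% of all genes off chromosome XII were. HIS4, whose product carries several steps of the pathway, had 2923, 3139 and 2966 CPM in deletion libraries, against 1057, 1042 and 982 CPM in wild type (1.55 ± 0.08, adjusted p = 1.71e-08). HIS5, the aminotransferase, rose by 1.36 ± 0.06, while HIS2 (-0.32 ± 0.07) and HIS6 (-0.21 ± 0.07) fell slightly. HIS6 lost its call in 5 of the 16 alternatives, with adjusted p between 0.0624 and 0.145 there by edgeR or DESeq2. HIS3 is carried on the plasmid and is not in this count. Another 4 pathways had more genes higher than lower off chromosome XII, beside the same shares of all genes there. They were the branched-chain pathway (6 higher and 1 lower of 9, median 0.45), lysine (4 and 0 of 9, median 0.23), the aromatic pathway (7 and 0 of 15, median 0.12) and serine, glycine and threonine (6 and 3 of 15, median 0.16). BAT2, the cytosolic branched-chain aminotransferase, rose by 0.91 ± 0.08, and the aromatic aminotransferase gene ARO9 by 1.74 ± 0.10, while LEU9, a minor isopropylmalate synthase, fell by 0.67. The homocitrate synthase genes LYS20 (1.20 ± 0.15) and LYS21 (0.54 ± 0.05) are near copies of each other. GCV2, a subunit of the glycine cleavage complex, had 181, 160.0 and 135 CPM in deletion libraries, against 439, 444 and 431 CPM in wild type (-1.46 ± 0.24). In the TAF14 strain it was also below wild type, at 95.6, 206 and 88.1 CPM.

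GCN4 itself rose by 0.40 ± 0.10 (adjusted p = 0.00486). The Gcn4 element TGACTCA was in 25 of 80 windows over 7 lists of amino acid and nitrogen genes, and in 2.8% of all windows. Its share was 4.91% among genes called higher off chromosome XII and 1.89% among those called lower, and these sets include members of the lists. The HIS4 window (chrIII:68284-68583, minus strand) is shown with the element in capitals, 199 bases before the gene start.
HIS4: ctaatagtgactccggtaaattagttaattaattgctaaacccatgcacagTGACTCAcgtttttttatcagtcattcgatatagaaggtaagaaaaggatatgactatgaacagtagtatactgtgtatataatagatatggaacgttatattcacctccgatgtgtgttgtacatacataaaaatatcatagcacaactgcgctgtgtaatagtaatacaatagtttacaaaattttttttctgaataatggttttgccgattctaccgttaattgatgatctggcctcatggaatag

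Permease genes for amino acids differed singly. Of 16 amino acid permease genes 7 were higher and 4 lower, where 20.4% and 26.8% of all genes off chromosome XII were. GAP1, the general amino acid permease, had 30.5, 38.3 and 40.5 CPM in deletion libraries, against 10.1, 8.01 and 7.27 CPM in wild type (2.10 ± 0.16), and the broad permease AGP1 rose by 1.5 ± 0.10. Among nitrogen assimilation genes 4 of 11 were higher and 2 lower, with the glutamate dehydrogenase GDH1 (1.12 ± 0.08), the asparagine synthetase ASN1 (1.11 ± 0.09) and the glutamine synthetase GLN1 (0.96 ± 0.07) at about 2-fold. Of 23 sulfur genes off chromosome XII 9 were lower and 4 higher (median -0.29), beside 26.8% and 20.4% of all genes there. SAM2, S-adenosylmethionine synthetase, had 135, 136 and 129.9 CPM in deletion libraries, against 421, 458 and 421 CPM in wild type (-1.70 ± 0.22).

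Several genes of phosphate supply were low. Cells short of phosphate switch on PHO genes through the transcription factor Pho4. Of 21 tested phosphate genes, all off chromosome XII, 13 were lower, 2 higher and 6 not called (median -0.46), where 26.8% of all genes off chromosome XII were lower. With a filter of 10 CPM in 3 libraries, which leaves out low genes, 8 were lower. PHO5, the repressible acid phosphatase, had 10.8, 14.1 and 15.2 CPM in deletion libraries, against 139, 114 and 80.5 CPM in wild type (-3.05 ± 0.19). PHO3, the acid phosphatase that does not need phosphate starvation, had 163, 157 and 150.3 CPM in deletion libraries, against 662, 649 and 684 CPM in wild type (-2.09 ± 0.07, adjusted p = 2.24e-10). VTC3, of the vacuolar polyphosphate polymerase, fell by 1.6 on the log2 scale. The TAF14 strain was not at the wild type level for each of these genes, with 40.1, 41.9 and 38.5 CPM of PHO84, 24.6, 32.4 and 25.5 of PHO5 and 804, 891 and 838 of PHO3. PHO84 and PHO5 differed from wild type in the TAF14 strain by -2.69 and -2.01 (adjusted p = 2.14e-07 and 1.53e-05).

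Metal genes moved singly, and their counts stand beside shares of 20.4% higher and 26.8% lower over all genes off chromosome XII. Zinc genes off chromosome XII had 2 lower and 1 higher of 5, with ZAP1, the activator of zinc uptake genes, falling by 0.48 and the alcohol dehydrogenase gene ADH4 rising by 0.74 ± 0.06. ZRT2, the low-affinity zinc transporter on chromosome XII, had 86.3, 105 and 93.1 CPM in deletion libraries, against 203, 211 and 175 CPM in wild type (-1.05 ± 0.09). Iron genes had 8 higher and 5 lower of 23 off chromosome XII (median 0.05). Besides FIT2 and FIT3, the iron-sulfur scaffold gene ISU1 rose by 1.42 ± 0.13, while FET4, a low-affinity iron transporter, fell by 1.57.

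Phospholipid genes fell nearly as a block. Ino2 and Ino4 together activate genes of phospholipid synthesis when inositol is scarce. Off chromosome XII 12 of 15 were lower and 0 higher (median -0.61), where 26.8% of all genes off chromosome XII were lower. INO1, which makes inositol phosphate, had 10.5, 11.4 and 8.62 CPM in deletion libraries, against 44.2, 48.6 and 33.8 CPM in wild type (-2.05 ± 0.25). The activator gene INO2 had 34.5, 35.3 and 37.6 CPM in deletion libraries, against 66.1, 71.4 and 72.4 CPM in wild type (-0.97 ± 0.10), and PSD1, the mitochondrial phosphatidylserine decarboxylase, fell by 1.01. In fatty acid synthesis 2 genes were higher and 4 lower of 10. OLE1, the fatty acid desaturase, had 503, 533 and 517 CPM in deletion libraries, against 1166, 1203 and 1021 CPM in wild type (-1.13 ± 0.11), and MGA2, an activator of OLE1, fell by 0.97. ACC1, acetyl-CoA carboxylase, rose by 0.79 ± 0.10, while the synthase genes FAS1 (0.08 ± 0.10) and FAS2 (0.00 ± 0.11) were not called. Sterol genes had 5 higher and 4 lower of 21 (median 0.07), with squalene synthase, ERG9, up by 0.79 ± 0.06.

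In central carbon metabolism, tricarboxylic acid cycle genes rose. Off chromosome XII 13 of 15 genes were higher and none was lower (median 0.45), where 20.4% of all genes off chromosome XII were higher. IDH1 and IDH2, the subunits of NAD-dependent isocitrate dehydrogenase, had 234, 301 and 267 CPM and 364, 399 and 399 CPM in deletion libraries, against 86.3, 77.8 and 65.5 CPM and 126, 115 and 113 CPM in wild type. They rose by 1.81 ± 0.18 and 1.72 ± 0.17. Aconitase, ACO1, the step before them, lies on chromosome XII and had 3055, 3341 and 3229 CPM in deletion libraries, against 654, 619.6 and 614 CPM in wild type (2.35 ± 0.15), or 1.87 ± 0.11 relative to its chromosome. Respiratory chain genes had 5 higher, 3 lower and 12 not called of 20 (median 0.13), and the difference between the lists was not tested. With chromosome XII included 6 were higher, or 10 without replicate 2 of the TAF14 strain. The cytochrome c genes parted, since CYC7, the minor isoform, had 9.28, 8.46 and 6.68 CPM in deletion libraries, against 1.14, 1.54 and 0.808 CPM in wild type (2.79 ± 0.33), while CYC1, the main isoform, had 11, 12.7 and 10.6 CPM in deletion libraries, against 18.1, 17.5 and 17.3 CPM in wild type (-0.62 ± 0.13). ATP synthase genes had 4 higher and 0 lower of 11 (median 0.19). Glycolysis had 9 higher and 2 lower of 18 (median 0.21). Glucose-repressed genes had 8 higher and 1 lower of 14 (median 0.32). Among them the aldehyde dehydrogenase ALD6, which cells also make on glucose, had 1641, 1809 and 1768 CPM in deletion libraries, against 356, 408 and 349 CPM in wild type (2.23 ± 0.10). Invertase, SUC2, rose by 0.61 ± 0.07. Hexose transporters had 3 higher and 3 lower of 13, with HXT4 falling by 1.77 and HXT3 rising by 0.71 ± 0.08.

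The protein synthesis machinery was slightly lower. Of 117 tested ribosomal protein genes off chromosome XII 74 were lower, 1 higher and 42 not called (median -0.28), where 26.8% of all genes off chromosome XII were lower. Many are duplicated, and 38 of the 134 tested on all chromosomes have a near copy that could share their reads. Of the 81 off chromosome XII without one 50 were lower and 1 higher. RPS13, which has no near copy, had 619, 620.3 and 616 CPM in deletion libraries, against 970.3, 966 and 1013 CPM in wild type (-0.67 ± 0.07). Ribosome assembly genes were 31 lower and 1 higher of 62 (median -0.16), and RNA polymerase I and III genes 9 lower and 0 higher of 19 (median -0.09). RPA190, the largest subunit of RNA polymerase I, had 1593, 1545 and 1559 CPM in deletion libraries, against 2056, 1969.6 and 2023 CPM in wild type (-0.36 ± 0.06). Mitochondrial ribosomal protein genes, 5 higher and 8 lower of 65, had a median of -0.01.

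Partner subunits of Taf14 did not move as one. Of 16 tested TFIID and TFIIF genes 2 were higher, 2 lower and 12 not called (median 0.02), where 47.2% of all genes off chromosome XII were called in either direction. The TATA-binding protein gene SPT15 fell by 0.30, TAF6 fell by 0.26, TAF10 rose by 0.41 ± 0.09, and TFG1, for the largest TFIIF subunit, rose by 0.24 ± 0.04. INO80 genes were 4 higher and 1 lower of 12 off chromosome XII, and the single fall was the largest difference, ARP4, an actin-related protein shared with other complexes, at 64.3, 61.5 and 63.7 CPM in deletion libraries, against 127, 129 and 124 CPM in wild type (-1.0 ± 0.05, adjusted p = 2.53e-08). SWI/SNF genes had 2 higher and 4 lower of 11, and RSC genes 1 and 4 of 11. STH1, the RSC motor, fell by 0.62. SAS3, the acetyltransferase of NuA3, had 58.7, 50.7 and 50.4 CPM in deletion libraries, against 98.3, 103 and 114 CPM in wild type (-0.98 ± 0.08), and the NuA3 subunits YNG1 and NTO1 fell by 0.42 and 0.29, whereas EAF6 rose by 0.48 ± 0.08. YAF9, another YEATS protein, was not called (-0.01 ± 0.09). RNA polymerase II genes had 4 higher and 3 lower of 11. The largest subunit gene, RPO21, had 1413, 1017 and 997 CPM in deletion libraries, against 721, 675 and 608 CPM in wild type (0.77 ± 0.13).

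Among cell division genes, those of G2 and mitosis were 12 lower and 0 higher of 14 off chromosome XII (median -0.51), where 26.8% of all genes off chromosome XII were lower. HOF1, needed for cytokinesis, had 55.1, 54.9 and 49 CPM in deletion libraries, against 102, 92.4 and 104 CPM in wild type (-0.91 ± 0.08), and the polo kinase gene CDC5 fell by 0.71. Genes of the G1 to S transition were called about as often as all genes off chromosome XII, with 4 higher, 7 lower and 13 not called of 24 (median -0.05), where 47.2% of all genes were called. Among them the G1 cyclin gene CLN1 had 49.6, 41.4 and 42.5 CPM in deletion libraries, against 108, 105 and 109 CPM in wild type (-1.27 ± 0.07). Genes of late mitosis and early G1 went both ways (7 higher and 8 lower of 18). DSE4, a glucanase of daughter cell separation, rose by 1.10 ± 0.07, while the replicative helicase genes MCM3 and MCM7 fell by 0.61 and 0.58. Actin genes were 14 higher and 1 lower of 26 (median 0.21), among them ARC19 of the Arp2/3 complex (0.48 ± 0.06) and the tropomyosin gene TPM1 (0.55 ± 0.07).

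Histone genes differed in both directions. Yeast keeps each core histone in a pair of divergent gene pairs. From the HTA1 and HTB1 pair, HTA1 had 103, 114 and 119.8 CPM in deletion libraries, against 223, 242 and 189 CPM in wild type (-0.95 ± 0.13), and HTB1 fell by 0.63. From the other pair for H2A and H2B, HTB2 rose by 0.42 ± 0.06, and HTA2 read 0.17 ± 0.10 and was not called. For H3 and H4 the HHT2 gene rose by 0.47 ± 0.08 and its neighbour HHF2 by 0.36 ± 0.07, while HHT1 was not called (-0.23 ± 0.10) and HHF1 fell by 0.22, with the HHF genes being near copies of each other. HHF1 lost its call in 4 of the 16 alternatives (adjusted p by edgeR of 0.0505 to 0.0606), and HHT1 gained one in 3. In all 3 of 11 histone genes were higher and 4 lower, where 20.4% and 26.8% of all genes off chromosome XII were.

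The title of the series names the DNA damage response. Of 23 tested off chromosome XII 3 were higher, 5 lower and 15 not called (median -0.01), where 47.2% of all genes off chromosome XII were called in either direction. RNR2, the small subunit of ribonucleotide reductase, had 119, 120.0 and 111 CPM in deletion libraries, against 233, 244 and 243 CPM in wild type (-1.04 ± 0.06, adjusted p = 2.5e-08), and SML1, the inhibitor of that enzyme, rose by 0.86 ± 0.15. MMS2, a ubiquitin-conjugating factor of postreplication repair, had 89.2, 92.2 and 89.1 CPM in deletion libraries, against 49.6, 44.3 and 41.4 CPM in wild type (1.0 ± 0.08). The photolyase gene PHR1 fell by 0.84. No DNA damaging agent is named in the labels of these libraries.

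Chromosome XII as a whole read higher in the deletion libraries than in wild type. Of 500 tested genes 315 were higher (63%) and 17 lower (3.4%), with a median of 0.456, a 1.37-fold difference. The left arm (58 genes) had a median of 0.445 and the right arm (442 genes) 0.457, and in 11 bins of 100 kb along the chromosome medians ranged from 0.34 to 0.56. Medians of the other 15 nuclear chromosomes ranged from -0.090 (XV) to 0.029 (III). On chromosome XII the TAF14 strain libraries had medians of 0.021, 0.532 and 0.011 against the wild type mean. The W81A strain libraries had 0.004, 0.001 and 0.011. DNA copy number was not measured in these libraries, and effects of losing TAF14 and of whatever raised chromosome XII cannot be told apart. The 18 tested genes of the mitochondrial genome also read high, with 17 higher and a median of 0.816. Their medians per library were 0.931, 0.730 and 0.798 in deletion libraries and -0.063, -0.146 and 0.176 in wild type.

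**Figure D4:**
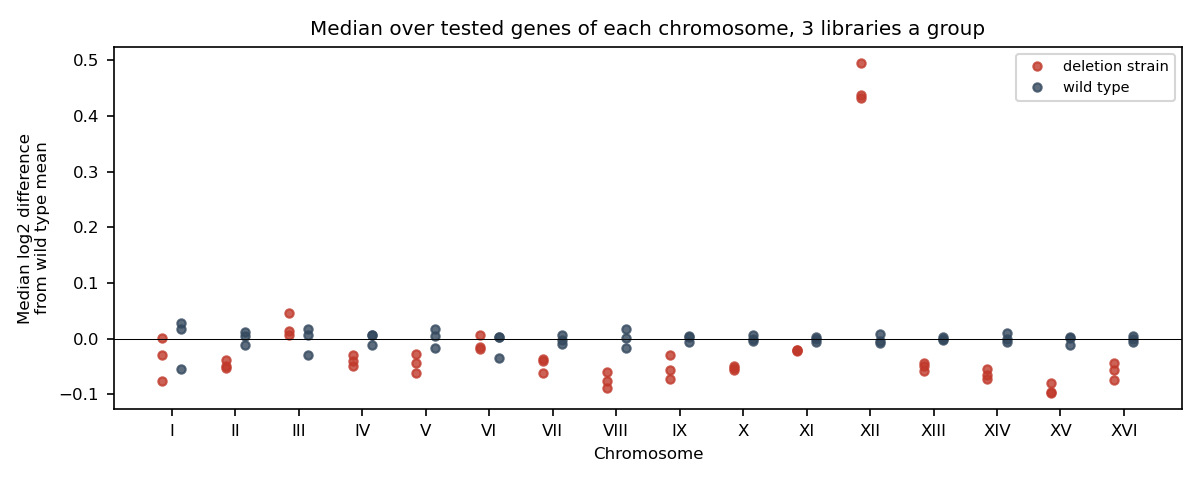
Median log2 difference from the wild type mean over the tested genes of each nuclear chromosome, with 1 point for each of the 3 deletion libraries (red, left) and 3 wild type libraries (dark, right). The deletion libraries lie at 0.432, 0.437 and 0.494 on chromosome XII, and between -0.097 and 0.046 on the others.

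Scaled to their own chromosome, 112 genes of chromosome XII were higher (22.4%) and 128 lower (25.6%). The largest rises on that scale were ACO1, CAR2, AHP1 and UBI4. AHP1, a thiol peroxidase, had 7683, 8779 and 7846 CPM in deletion libraries, against 1917, 1826 and 1731 CPM in wild type, and rose by 1.67 ± 0.09 relative to the chromosome (2.15 ± 0.08 without this scaling). CAR2 rose by 1.81 ± 0.16 relative to the chromosome. The largest falls were SST2, FRE1, BNA5 and NFG1. FRE1, a ferric and cupric reductase of the plasma membrane, had 109, 108 and 104 CPM in deletion libraries, against 297, 296 and 292 CPM in wild type, and fell by 1.94 relative to the chromosome (1.46 without this scaling). BNA5, kynureninase of NAD synthesis, fell by 1.74 and NFG1 by 1.61 relative to the chromosome.

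The strains with TAF14 or its W81A form on the plasmid place some of these genes. The deletion libraries are shared by these comparisons, so the values are given side by side. NCE103 had 1617, 1535 and 1689 CPM in the deletion strain, 61.1, 68.1 and 50.7 in the W81A strain, 59.6, 48.9 and 57.6 in the TAF14 strain and 61.3, 50.3 and 64.7 in wild type. Only the deletion libraries were high. BAR1 had 38.9, 40.9 and 44.9 CPM in the W81A strain, near the deletion libraries, and 451, 252 and 462 in the TAF14 strain, near wild type. HSP12 likewise had 1211, 1151 and 1299 CPM in the W81A strain. CIP1 had 6.39, 16.1 and 7.15 CPM in the TAF14 strain, below wild type (42.7, 36.6 and 43 CPM), and did not differ between the deletion and TAF14 strains beyond their spread (log2 fold change -0.44 ± 0.31, adjusted p = 0.259). SER3 had 669, 299 and 667 CPM in the TAF14 strain, also without a called difference from the deletion strain (0.50 ± 0.22, adjusted p = 0.0768). The 299 CPM came from replicate 2. In the W81A strain SER3 had 151, 157 and 160 CPM, near wild type (178, 138 and 145 CPM).

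**Figure D5:**
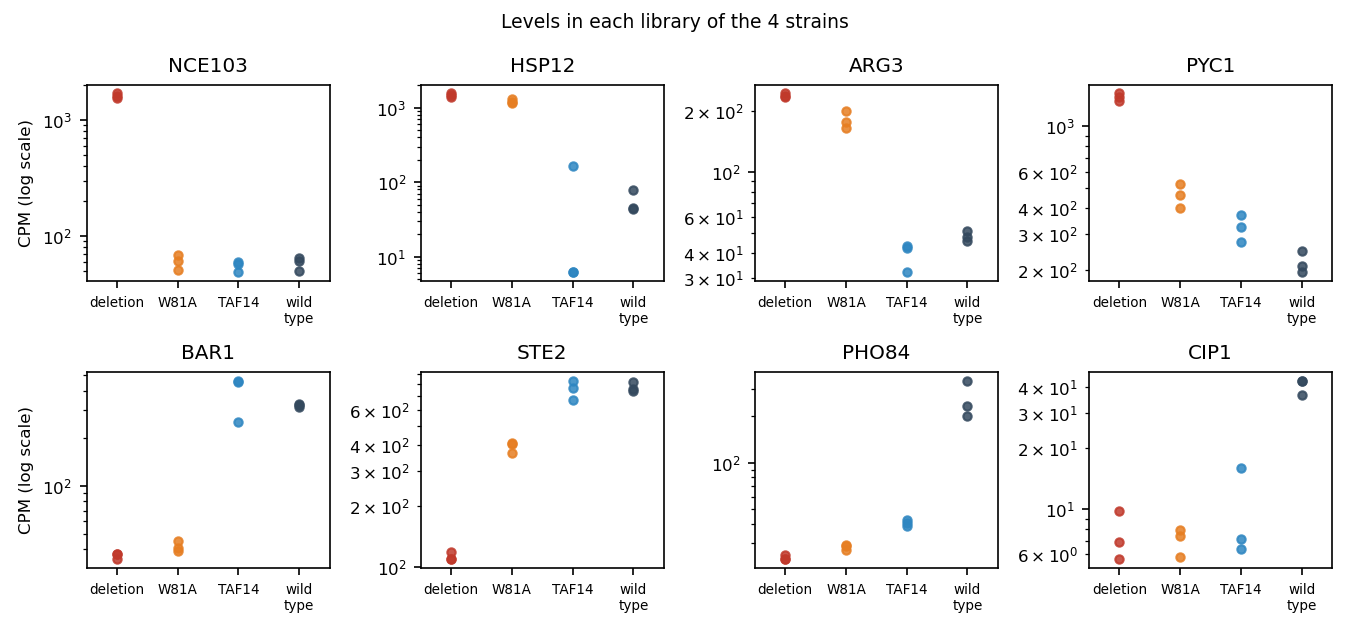
Levels (CPM, log axis) of 8 genes in each of the 3 libraries of the deletion, W81A, TAF14 and wild type strains, from left to right. NCE103 is high in the deletion libraries alone, BAR1 is low in the deletion and W81A libraries, and PHO84 and CIP1 are high in the wild type libraries alone.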

How the data were processed

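The values are read counts per gene as deposited by the authors, in 1 table with a column for each of 12 libraries; no other columns were present. Per the labels' protocols, RNA was depleted of ribosomal RNA and made into strand-specific libraries. The submitters' processing notes name TopHat2 2.0.14, SAMtools 0.1.19, HTSeq 0.6.1p1, DESeq2 1.8.1 and build sacCer3. The annotation and the strand setting of the counting are not given in the sources used here, so reads of overlapping genes cannot be assigned with certainty. Columns were matched to samples by title.

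Of 6692 gene entries, 6008 were matched to the R64 annotation by locus tag. The 684 others held 0.952% of counts, stayed in the fit and are not named. Differences were tested with edgeR 4.0.16 in R 4.3.3, with its quasi-likelihood F-test, in a single model that held all 12 libraries in 4 groups (8 residual degrees of freedom, biological coefficient of variation 8.59%). Library sizes were scaled by TMM, the trimmed mean of M-values, and the default filter removed 774 entries. Log2 fold changes are deletion strain minus wild type ± standard error from the F statistic, and CPM are counts per 1000000 of scaled library size. For values relative to chromosome XII, library sizes of its genes came from those genes alone. The steps were tested on simulated counts before use. Near-copy genes (at least 95% identity over at least 30% of length) were found with blastn 2.17.0+. Depth was 9007715 to 10766996 counts in the 6 libraries, and limits from 0 counts cover counting error only.

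The libraries, the 55 gene lists and the naming rule were chosen with earlier results of these data known. The rule named TAF14, marker and neighbouring genes. It named the 14 largest rises and 14 largest falls off chromosome XII among called genes with a mean log2 CPM of at least 3, groups that do not overlap and a standard name, and 4 each way on chromosome XII relative to the chromosome. From each list it named the 4 members with the smallest p, and any member of lists of up to 12. Of 1343 places in the lists 1228 were tested, and 115 were not. Lists are described by counts and medians, without a test of the list. Promoter windows and sequences came from the R64 genome of RefSeq. For each element, the printed window is that of the called list member off chromosome XII with the largest change among those that hold the element. Members with a near copy or with overlapping groups were left out of this choice. The alternatives were DESeq2 1.42.0, limma-voom (limma 3.58.1), relative log expression and upper-quartile scaling, TMM over genes off chromosome XII, dropping the filter, requiring 10 CPM in 3 libraries, the 6 libraries alone, leaving out replicate 2 of the TAF14 strain or each library in turn, and a replicate block.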

Additional observations from a re-analysis of the deposited data

How the results depend on the processing

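All counts of called genes off and on chromosome XII stayed within 1.5 times their main values under the 16 alternatives. Leaving out each library in turn gave 938 to 1082 genes higher and 1159 to 1415 lower off chromosome XII, 258 to 295 higher and 15 to 18 lower on it, and 93 to 107 higher and 106 to 119 lower relative to the chromosome. The chromosome XII median minus that of the other genes, 0.505, then ranged from 0.495 to 0.529. Off chromosome XII, scaling on those genes alone gave 1250 higher and 1266 lower, and upper-quartile scaling 1012 and 1542. Deviations from the group means had r = -0.138, 0.31 and -0.197 between same-numbered libraries of the groups. Differently numbered libraries had r from -0.385 to 0.427. With means of only 3 libraries, these values cannot settle whether the numbers pair the samples. The replicate block gave 1083 higher and 1452 lower off chromosome XII, 318 and 19 on it, and 110 and 125 relative to it. Genes not called in the main fit changed sign: ARG2 was -0.01 with upper-quartile scaling, YAF9 was 0.03 with scaling off chromosome XII and -0.09 to 0.06 when single libraries were left out, and SAG1 was -0.07 to 0.04 when single libraries were left out. HHF1, HIS6 and NTO1 lost their calls in some settings, and HHT1, HTA2 and ORT1 gained one. Some list counts moved by over 1.5 times. Of phosphate genes 8 were lower under the 10 CPM filter, against 13, of subtelomeric genes 29 against 47, and of meiotic genes 2 against 6. Ergosterol genes had 11 higher, against 7 on all chromosomes, with scaling off chromosome XII, with the 6 libraries alone and without replicate 2 of the TAF14 strain, and respiratory chain genes 10 against 6 without that replicate. Leaving out single libraries moved counts of sulfur and methionine, DNA damage, INO80, vitamin and mitochondrial ribosomal protein genes, the last to 4 higher and 5 lower, against 7 and 8. The causes were not tested. Depth limits the lowest genes: in deletion libraries MF(ALPHA)1 rested on at most 3 counts.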

Other observations

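Other gene groups are given beside the shares of all genes off chromosome XII, 20.4% higher and 26.8% lower. Of 17 tested purine and one-carbon genes off chromosome XII 8 were higher and 3 lower (median 0.12). ADE2, of purine ring synthesis, had 622, 616 and 586 CPM in deletion libraries, against 352, 346 and 369.5 CPM in wild type (0.77 ± 0.08). IMD2, of guanine nucleotide synthesis, had 6.55, 9.06 and 6.78 CPM in deletion libraries, against 41.3, 42.5 and 38.9 CPM in wild type, and IMD4, of the same step, which overlaps another annotated gene, read -0.99 ± 0.09. Vitamin genes had 4 higher and 6 lower of 16. Biotin synthase, BIO2, had 15.3, 16.6 and 19.6 CPM in deletion libraries, against 86.1, 87.7 and 76.8 CPM in wild type, and biotin is the cofactor of the carboxylases PYC1 and ACC1, which were both higher. The nicotinic acid permease gene TNA1 fell by 1.11, while SNZ1, of vitamin B6 synthesis, had 377, 437 and 394 CPM in deletion libraries, against 219, 213 and 184 CPM in wild type (0.97 ± 0.10). Of 17 nitrogen catabolite genes 4 were higher and 2 lower, with the urea amidolyase gene DUR12 up by 1.63 ± 0.15.

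Cell wall genes had 6 higher and 4 lower of 17 off chromosome XII (median 0.16), against 47.2% of all genes there called in either direction. HSP150, a secreted mannoprotein of the wall, had 4346, 4743 and 4282 CPM in deletion libraries, against 2295, 2447 and 2172 CPM in wild type (0.95 ± 0.12), and the stress-induced glucan synthase gene GSC2 rose by 0.79 ± 0.10. Osmotic stress genes were mostly not called (1 higher, 2 lower and 6 not called of 9), and the glycerol phosphate dehydrogenase gene GPD2 fell by 0.77. Meiotic genes, which haploid cells keep nearly silent, had 1 higher and 6 lower of 15. NDJ1, a meiotic telomere protein gene, had 1.64, 1.69 and 2.03 CPM in deletion libraries, against 13.5, 12.8 and 16.1 CPM in wild type (-2.97 ± 0.41), whereas IME1, the master regulator of meiosis, had 10.04, 7.07 and 7.75 CPM in deletion libraries, against 3.32, 3.49 and 4.14 CPM in wild type (1.18 ± 0.19). Of 121 tested subtelomeric genes, taken as those up to 20 kb from a chromosome end, 47 were lower and 20 higher (median -0.27).

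Ribosomal protein genes held a pair of outliers, chosen after their values were seen. RPL8A read -1.89, although it has a near copy that could share its reads, and RPL22B, which has none, read -1.50, while every other called fall of the list was -0.67 or smaller in size.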
